A study of Equus caballus with 2 samples.

Results

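The smooth muscle contractile genes described here are 10 genes chosen by symbol from the 21426 genes listed for equine endometrial fibroblasts: *ACTA2*, *ACTG2*, *TAGLN*, *CNN1*, *CALD1*, *TPM1*, *TPM2*, *LMOD1*, *MYL9* and *MYH11*. All 10 were found in both count tables, each under 1 Ensembl identifier, and all 10 were among the 7658 genes called expressed here, whose level averaged over the libraries reached 10 counts per 1000000 unique molecular identifiers (CPM). The rule used the symbols alone, and the list was drawn up with earlier results of these data known. A unique molecular identifier (UMI) marks a single captured transcript at its 3' end, so a CPM value is a share of the captured transcripts and is not scaled to gene length.

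The cells were fibroblasts from the endometrium, the lining of the uterus, of 4 mares with healthy or mildly fibrotic tissue in the mid-luteal phase. They were grown on collagen-coated hydrogels after passaging. In the last 24 h bovine serum albumin replaced serum in the medium, and recombinant human TGF-β1 was added at 10 ng/ml, or nothing in the control. Cells from all 4 mares were mixed after harvest, separately for TGF-β1 and control, and each mixture became 1 droplet library, which leaves 2 libraries without replicates. The libraries are therefore compared by value and counting error, with no p-value, and treatment and library preparation cannot be told apart. The study assigned cells to mares from genotypes in the reads, which was not repeated here, and the spread over cells below therefore includes the difference between mares.

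Smooth muscle cells shorten by sliding actin filaments along filaments of smooth muscle myosin, whose regulatory light chain switches the motor on when it is phosphorylated. Tropomyosins lie along the actin filament, and caldesmon, calponin and transgelin bind it and adjust its stability and its access to myosin. Fibroblasts can build part of this machinery. Such cells, called myofibroblasts, form actin stress fibres that pull on collagen, and α-smooth muscle actin is their most used marker. TGF-β1 is the best known factor that induces them. Many of these genes share binding sites for serum response factor, which is helped by the myocardin family of coactivators.

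After removal of cells with under 20000 UMIs, under 3500 genes or at least 4% mitochondrial UMIs, 3865 of 4384 control barcodes and 4513 of 5124 TGF-β1 barcodes were kept. They held 210497250 and 219731144 UMIs, and the median cell had 50313 and 43142. The libraries shared 6 barcodes before and 2 after this filter. Intervals below are exact binomial intervals at the 95% level (Clopper-Pearson), and they cover counting error only. Where cells are compared at equal depth, each cell was thinned at random to 20000 UMIs, at which 1 UMI corresponds to 50 CPM.

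The cells carried the markers of fibroblasts, and also those that define smooth muscle. Of the fibroblast markers, 8 of 8 were expressed, and they summed to 21634 CPM in control and 21746 CPM in TGF-β1 cells. This even sum held unequal parts, since *VIM* (4399 and 2240.05 CPM), *DCN* (2098 and 1795 CPM), *PDGFRA* (50.5 and 16.7 CPM) and *THY1* (216 and 87.5 CPM) were lower after TGF-β1 and the collagen genes *COL1A1*, *COL1A2* and *COL3A1* were higher. The markers that define smooth muscle, of which *ACTG2*, *CNN1*, *LMOD1* and *MYH11* are members here, were expressed in 8 of 8 cases and summed to 1427 and 2176 CPM. *MYOCD* reached the mean of 10 CPM only through the TGF-β1 library, with 8.13 CPM in control and 12.8 CPM in TGF-β1 cells. Within this list *ACTG2* and *CNN1* made the sum higher, whereas *DES* (646 and 569 CPM), *SYNPO2* (102 and 49.9 CPM) and *MYH11* were lower after TGF-β1. Desmin (*DES*), the intermediate filament of muscle, was found in 98.03% of thinned control cells and 98.3% of thinned TGF-β1 cells. Myocardin (*MYOCD*), the coactivator most specific to smooth muscle, was found in 11.05% and 18.2%. Pericyte markers were less complete, with 2 of 9 expressed and a summed level of 143 and 117 CPM. The expressed ones were *RGS5*, with 51.7 and 61.1 CPM, and *PDGFRB*, which fibroblasts also express, with 80.1 and 49.0 CPM, while *ABCC9* and *KCNJ8* had 2 UMIs or fewer in either library. The endothelial list summed to 12.8 and 23.2 CPM, nearly all of it *ERG*, and the skeletal and cardiac muscle list to 1.62 and 3.38 CPM. The epithelial list summed to 134 CPM in control and 12.3 CPM in TGF-β1 cells, led by *KRT8* (114 and 4.48 CPM) and *KRT7* (19.3 and 7.04 CPM), and the immune list to 56.7 and 52.9 CPM, mostly *CD68*. The part of these lists in the results below was not tested. No cell type that should lack the contractile genes was identified, so free RNA could not be measured.

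Together, the 10 genes took up 1.86% of the UMIs of control cells and 2.79% of those of TGF-β1 cells, which is 1.51-fold more (log2 ratio 0.59, interval 0.59 to 0.59). The response was uneven over the members. *ACTG2*, *TPM1* and *CNN1* were more than 2-fold higher, *TAGLN*, *CALD1* and *ACTA2* were between 1.31-fold and 1.53-fold higher, *LMOD1*, *TPM2* and *MYL9* were between 0.986-fold and 1.06-fold of control, and *MYH11* was lower. The median log2 ratio of the 10 members was 0.42, against 0.0082 for the 7658 expressed genes. More than 2-fold higher were 3 of the 10 members, and 2.3% of the 7658 genes. More than 2-fold lower were 0 of the 10 members, and 2.13% of the genes. With a limit of 1 CPM these shares were 3.45% and 3.46% of 12116 genes. Past 1.5-fold, 4 members were higher, as were 6.19% of the genes, and 1 was lower, as were 6.48%. The counting interval of the log2 ratio lay above 0 for 8 members and below 0 for *MYL9* and *MYH11*. By sign alone, without regard to intervals, 51.4% of the genes had a ratio above 0 and 48.6% below.

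**Figure D1:**
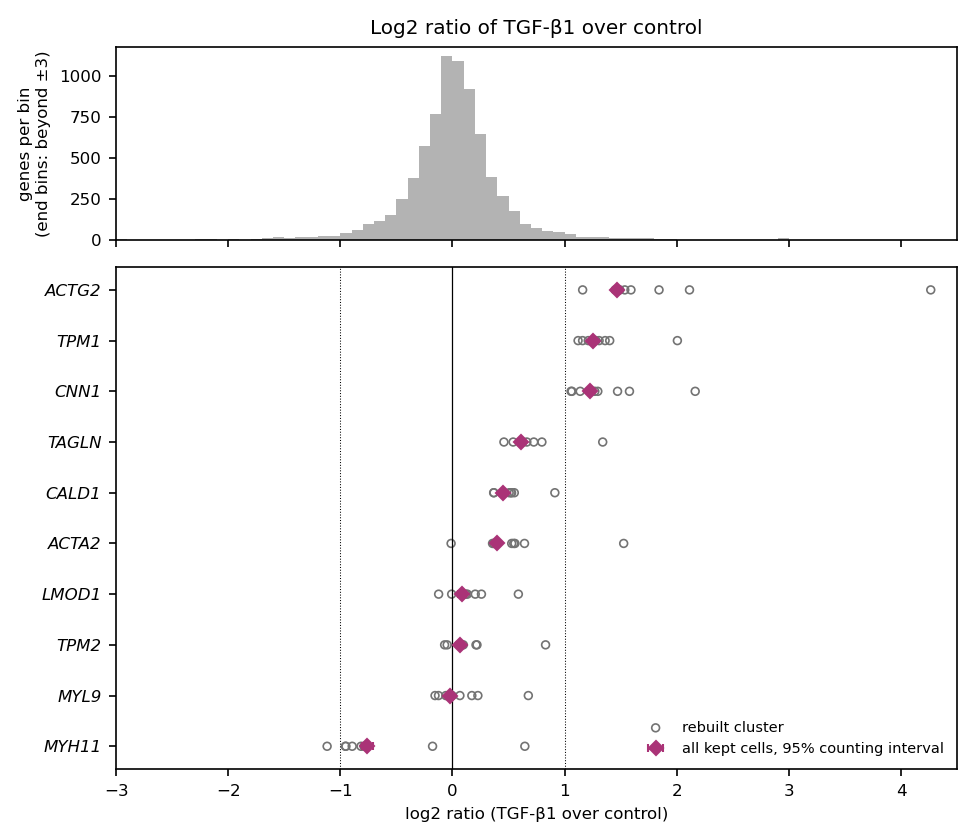
Log2 ratio of TGF-β1 over control, for all 7658 expressed genes (upper panel, genes per bin, with values beyond ±3 in the end bins) and for the 10 contractile genes (lower panel). Diamonds are all kept cells with their 95% counting intervals, most of them narrower than the symbol, open circles are the 8 rebuilt clusters, and dotted lines mark 2-fold. *ACTG2*, *TPM1* and *CNN1* lie beyond 2-fold in every cluster, and *MYH11* is below 0 in 7 of 8.

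The actins form the thin filament. *ACTA2* (ENSECAG00000015145), α-smooth muscle actin, had 759527 UMIs or 3608 CPM in the control library and 1042515 UMIs or 4744.5 CPM in the TGF-β1 library. This is a log2 ratio of 0.39 (0.39 to 0.40), higher than for 88.1% of the expressed genes. *ACTG2* (ENSECAG00000018853), γ-smooth muscle actin of visceral muscle, had 73495 UMIs or 349 CPM in control and 212035 UMIs or 965 CPM in TGF-β1 cells. Its log2 ratio of 1.47 (1.45 to 1.48) was the highest of the 10 members and above that of 99.1% of the expressed genes. The smooth muscle actins are nearly identical in their coding part, so the assignment of reads between them rests on their 3' ends and is uncertain to that extent.

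Transgelin, calponin and caldesmon bind the actin filament. *TAGLN* (ENSECAG00000056905), transgelin or SM22α, had 968950 UMIs or 4603 CPM in control and 1549624 UMIs or 7052 CPM in TGF-β1 cells, a 1.53-fold difference (log2 ratio 0.62, 0.61 to 0.62). *CNN1* (ENSECAG00000014489), calponin 1, which inhibits the myosin motor on actin, went from 40612 UMIs or 193 CPM to 99526 UMIs or 453 CPM, 2.35-fold higher (log2 ratio 1.23, 1.21 to 1.25). *CALD1* (ENSECAG00000006844), caldesmon, had 702593 UMIs or 3338 CPM in control and 1000512 UMIs or 4553 CPM in TGF-β1 cells (log2 ratio 0.45, 0.44 to 0.45). All 3 genes of this role were thus higher after TGF-β1. *CALD1*, *TPM1* and *TPM2* make muscle and non-muscle forms of their proteins by alternative splicing, and counts per gene do not separate these forms.

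The 2 tropomyosins went apart. *TPM1* (ENSECAG00000014949), α-tropomyosin, had 543396 UMIs or 2581 CPM in control and 1354995 UMIs or 6167 CPM in TGF-β1 cells, 2.39-fold higher (log2 ratio 1.26, 1.25 to 1.26). *TPM2* (ENSECAG00000014009), β-tropomyosin, had 2774 and 2914 CPM, a log2 ratio of 0.07 (0.07 to 0.08). *LMOD1* (ENSECAG00000021583), leiomodin 1, which starts new actin filaments in smooth muscle, had 62.6 and 66.4 CPM (log2 ratio 0.08, 0.05 to 0.12).

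The myosin subunits were not higher. *MYL9* (ENSECAG00000007545), the regulatory light chain of smooth muscle myosin, had 999 CPM in control and 985 CPM in TGF-β1 cells, a log2 ratio of -0.02 (-0.03 to -0.01). Its sign depended on the processing, with 0.03 as the mean of per-cell CPM and 0.06 among cells with 30000 to 60000 UMIs. *MYH11* (ENSECAG00000017015), the smooth muscle myosin heavy chain and the motor itself, had 9025 UMIs or 42.9 CPM in control and 5558 UMIs or 25.3 CPM in TGF-β1 cells. It was 0.590-fold the control level (log2 ratio -0.76, -0.81 to -0.71), and only 3.92% of the expressed genes had a lower ratio.

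Over the cells, the summed contractile genes had a lower coefficient of variation after TGF-β1, and the ratio between the libraries was highest at the low percentiles. For each cell the 10 genes were summed as a share of its UMIs. In the control library this share was 0.594% at the 10th percentile of cells, 1.64% at the median and 3.13% at the 90th percentile. In the TGF-β1 library the same percentiles were 1.73%, 2.71% and 3.86%. At equal depth the coefficient of variation of the sum was 0.560 in control and 0.316 in TGF-β1 cells. Of the thinned TGF-β1 cells, 92.1% lay above the control median and 30.7% above the level that 10% of control cells exceed, but only 0.510% lay under the level that 10% of control cells fall short of.

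**Figure D2:**
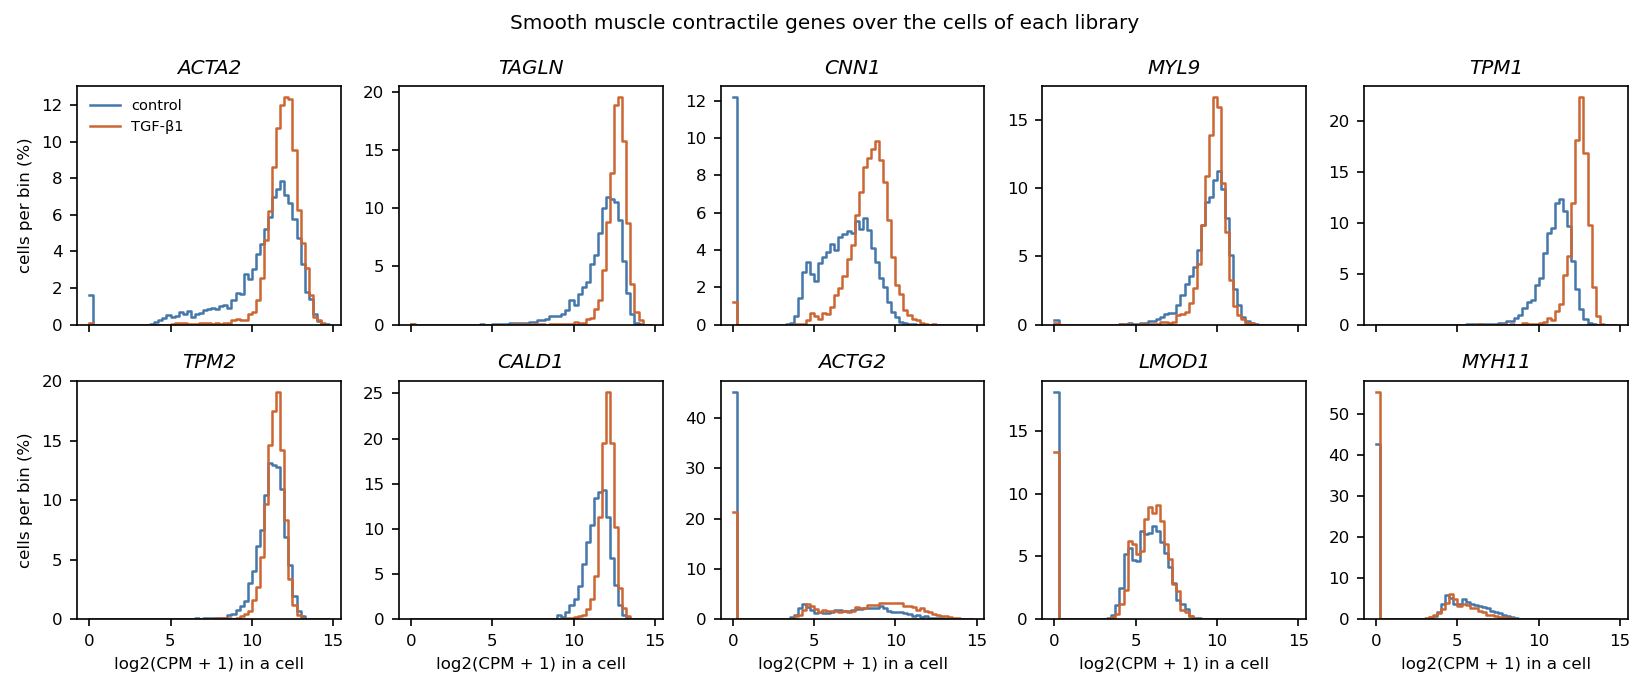
Distribution of each contractile gene over the 3865 control cells and the 4513 TGF-β1 cells, as percent of cells per bin of 0.25 against log2(CPM + 1) in a cell, without thinning, where the bin at 0 holds cells without a UMI. The control distributions of *ACTA2*, *TAGLN* and *CNN1* have a long lower tail that is nearly empty in the TGF-β1 library, the whole distribution of *TPM1* lies higher, and *ACTG2* and *MYH11* have no UMI in a large share of cells of both libraries.

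In the control library *ACTA2* had a wide range of levels. A control cell at the 10th percentile had 217 CPM of *ACTA2* and at the 90th percentile 7340 CPM, a 33.8-fold range. The same percentiles of the TGF-β1 library were 1944 and 8162 CPM, a 4.20-fold range. The TGF-β1 library was 8.96-fold higher at the 10th percentile, 1.54-fold at the median and 1.11-fold at the 90th. After thinning, 123 control cells (3.18%, 2.65% to 3.79%) but 6 TGF-β1 cells (0.133%, 0.0488% to 0.289%) had no UMI of *ACTA2*, and cells with 1 to 9 UMIs made up a further 11.4% and 1.15%.

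*TAGLN*, *CNN1* and *CALD1* followed the same form. For *TAGLN* the ratio went from 3.62 at the 10th percentile to 1.64 at the median and 1.29 at the 90th, and thinned cells with 1 to 19 UMIs made up 8.23% of control and 0.487% of TGF-β1 cells. For *CNN1*, which was absent from 24.0% (22.6% to 25.3%) of thinned control cells and 2.99% (2.51% to 3.53%) of thinned TGF-β1 cells, the ratio was 5.99 at the 25th percentile and 1.91 at the 90th. For *CALD1* it went from 1.97 to 1.196.

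In *TPM1*, as in *CNN1*, the upper end was higher by more than in *ACTA2*, *TAGLN* and *CALD1*. Its ratio was 3.82 at the 10th percentile, 2.61 at the median and still 2.03 at the 90th, and 78.9% of thinned TGF-β1 cells exceeded the level that 9.73% of thinned control cells exceeded. For *MYL9* and *TPM2*, whose means differed little, the ratio passed below 1 at the upper end. *MYL9* was 1.65-fold higher at the 10th percentile and 0.888-fold at the 90th, and *TPM2* was 1.45-fold and 0.964-fold. The coefficient of variation over thinned cells was lower in the TGF-β1 library for every member but *MYH11*, for example 0.652 and 0.506 for *MYL9*, where counting alone would give 0.228 and 0.226. *MYH11* had 1.86 in control and 2.29 in TGF-β1 cells, where counting alone would give 1.13 and 1.45. The coefficient of variation falls as the mean of a gene rises, and the variance over the mean was higher after TGF-β1 for *CNN1* (5.34 and 6.31) and *ACTG2* (54.6 and 75.3) and lower for the other members.

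**Figure D3:**
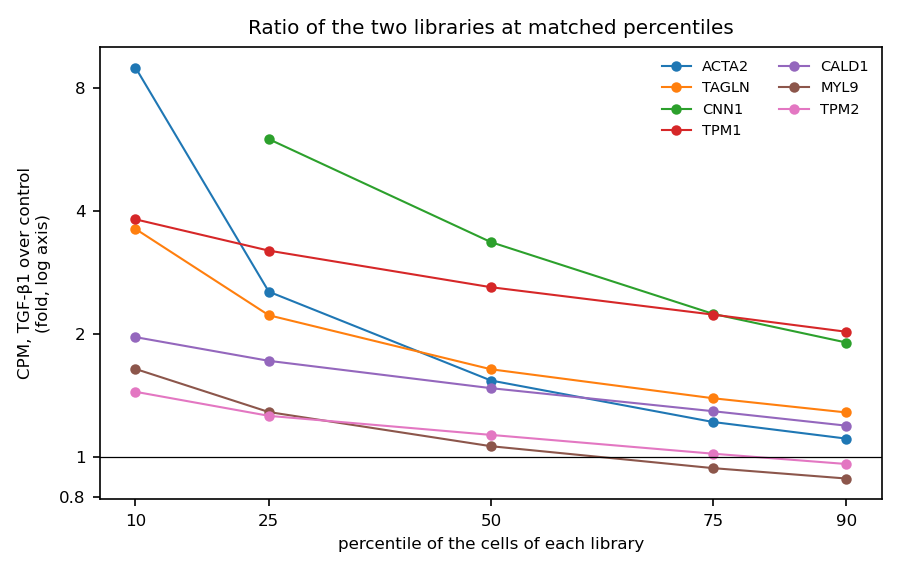
Ratio of TGF-β1 over control CPM (log axis) at the same percentile of the cells of each library, for the 7 members with a median above 100 CPM in both libraries. The *CNN1* line starts at the 25th percentile because the 10th percentile of control cells is 0. All 7 lines fall from left to right, from 8.96 to 1.11 for *ACTA2*, and those of *MYL9* and *TPM2* end below 1.

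The sum also moved with the depth of a cell, more so in the control library. Its Spearman correlation with the UMIs of a cell was 0.32 over control and 0.12 over TGF-β1 cells. Control cells with 20000 to 30000 UMIs had a mean sum of 1.18% of thinned UMIs and those with at least 60000 UMIs 2.10%, against 2.51% and 2.84% in the TGF-β1 library. Among cells with 30000 to 60000 UMIs, which were 2704 control and 3286 TGF-β1 cells, the log2 ratio of the sum was 0.69. Cells with at least 3 cycling markers, 3.03% of control and 2.53% of TGF-β1 cells, had a sum of 16255 and 25031 CPM, against 18644 and 28026 CPM in the other cells.

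*ACTG2* varied widely between cells, with 19.6 CPM in the median control cell and 829 CPM at the 90th percentile, against 229.8 and 2658 CPM in the TGF-β1 library. The 10% of thinned cells with most *ACTG2* held 71.3% of its UMIs in control and 57.1% in the TGF-β1 library, whereas for *CALD1* this share was 19.9% and 16.3%. *ACTG2* was found in 46.1% (44.5% to 47.7%) of thinned control cells and 71.2% (69.9% to 72.6%) of thinned TGF-β1 cells. Cells with at least 100 thinned UMIs of *ACTG2* numbered 33 of 3865 (0.854%, 0.588% to 1.197%) in control and 172 of 4513 (3.81%, 3.27% to 4.41%) after TGF-β1, and they held 20.2% and 33.5% of its UMIs. With its higher level after TGF-β1, *ACTG2* had more cells in every class above 0, including the class of 1 to 9 UMIs (29.8% and 32.2% of cells).

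*MYH11* averaged 0.778 and 0.477 UMIs per thinned cell, at which counting alone gives uneven shares, and the 10% of cells with most of it held 55.04% of its UMIs in control and 63.4% in TGF-β1 cells. It was found in 37.9% (36.3% to 39.4%) of thinned control cells and 27.5% (26.2% to 28.8%) of thinned TGF-β1 cells. For *LMOD1* the share of cells with a UMI had a counting interval of 58.4% to 61.5% in control and 65.0% to 67.8% after TGF-β1, close to 1 UMI per thinned cell (means of 1.17 and 1.28). Of the 10 members, all were found in 15.5% of thinned control and 16.6% of thinned TGF-β1 cells, and fewer than 8 in 29.9% (28.5% to 31.4%) and 10.6% (9.71% to 11.5%).

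Within each library the contractile genes varied together from cell to cell, with lower correlations after TGF-β1. Their sum also varied less between TGF-β1 cells, with a coefficient of variation of 0.316 against 0.560 in control. The part of this narrower spread in the lower correlations was not tested. Over thinned cells, the 8 members found in at least 50% of the cells of both libraries gave 28 pairs. Their Spearman correlation had a median of 0.64 in the control library (0.25 to 0.89) and 0.41 in the TGF-β1 library (0.11 to 0.65), and all 28 pairs were positive in both libraries and lower in the TGF-β1 library. The points are cells of 1 library and come from the same 4 mares, so these are descriptions without a p. Among cells with 30000 to 60000 UMIs the medians were 0.63 and 0.41. Within the rebuilt clusters they ranged from 0.59 to 0.73 in control and from 0.35 to 0.66 in TGF-β1 cells.

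**Figure D4:**
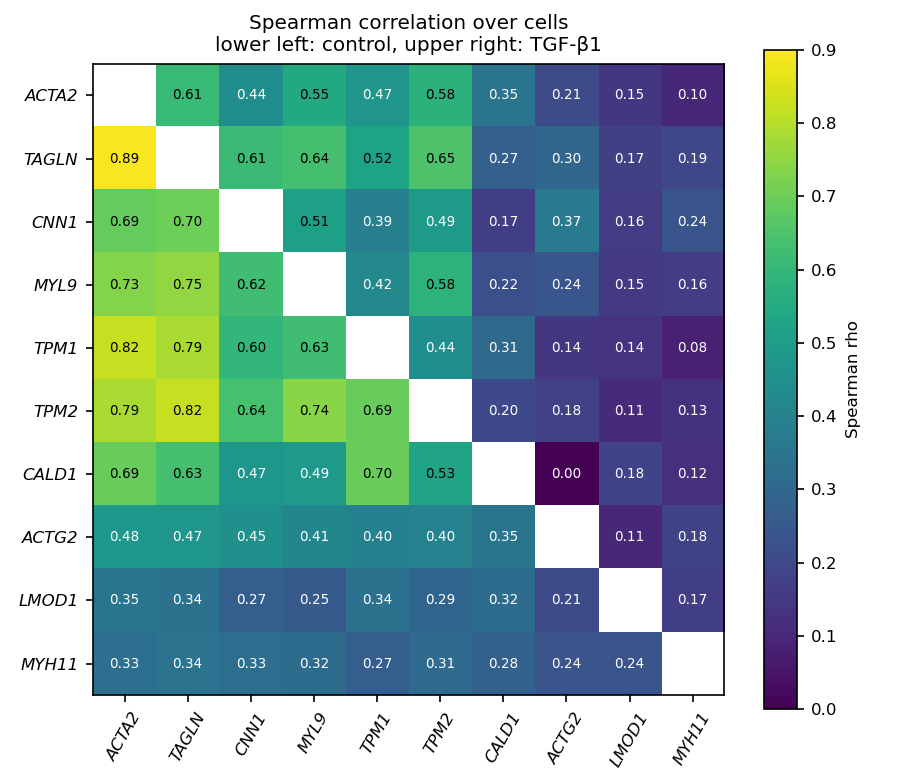
Spearman correlation of each pair of contractile genes over cells thinned to 20000 UMIs, in the control library (3865 cells, lower left) and the TGF-β1 library (4513 cells, upper right). The control side is brighter for every pair, from 0.89 for *ACTA2* with *TAGLN*, and *CALD1* with *ACTG2* is the darkest pair of the TGF-β1 side.

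*ACTA2* and *TAGLN* formed the closest pair in the control library, with a correlation of 0.89, which was 0.61 in the TGF-β1 library. There, *TAGLN* with *TPM2* was the closest pair, at 0.65 (0.82 in control). *CALD1* differed most between the libraries. Its correlation was 0.70 with *TPM1* and 0.69 with *ACTA2* in control, and 0.31 and 0.35 in the TGF-β1 library. With the sum of the other members *CALD1* had 0.68 in control and 0.32 in TGF-β1 cells, whereas *TAGLN* kept 0.91 and 0.74 and *CNN1* 0.72 and 0.62. The counts of *LMOD1*, which is in 7 of the 28 pairs and sets the lower end of both ranges, were sparse, as were those of *ACTG2* and *MYH11*, and their correlations with the sum of the others (0.36 to 0.49 in control, 0.20 to 0.25 in TGF-β1 cells) are given as values only.

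Cells were also taken by *ACTA2* alone. Its own range was narrower in the TGF-β1 library, 4.20-fold between the 10th and 90th percentile against 33.8-fold in control. The folds of the 2 libraries therefore rest on unequal *ACTA2* ranges and do not compare the strength of coupling. In the control library, the 391 thinned cells with most *ACTA2* had 8738 CPM of *TAGLN*, 499 CPM of *CNN1* and 979 CPM of *ACTG2*. The 395 cells with least had 862, 29.0 and 5.57 CPM, which is 10.1-fold, 17.2-fold and 176-fold less, for *CNN1* and *ACTG2* from a level below 1 UMI per cell. In the TGF-β1 library the same choice gave 454 and 467 cells, and the folds were 2.40 for *TAGLN*, 3.76 for *CNN1* and 3.08 for *ACTG2*. *CALD1* differed by 3.16-fold between such cells in control and by 1.52-fold after TGF-β1.

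Of 7299 other genes with at least 10 CPM in both libraries, 1.23% in control and 0.411% in the TGF-β1 library had a correlation above 0.3 with the summed members, and the median was -0.02 in both. The 10 named genes whose lower correlation of the 2 libraries was highest were *MYL6* (0.69 in control, 0.50 in TGF-β1 cells), *ACTB* (0.79, 0.46), *DSTN* (0.71, 0.44), *ACTN1* (0.60, 0.43), *INHBA* (0.56, 0.43), *C1QTNF3* (0.74, 0.41), *MYL12A* (0.60, 0.40), *DES* (0.55, 0.40), *NEXN* (0.53, 0.39) and *CSRP1* (0.48, 0.37). *MYL6* and *MYL12A* encode myosin light chains, *ACTB* β-actin, *DSTN* the actin-severing destrin, *ACTN1* the actin cross-linker α-actinin 1, *NEXN* the actin-binding nexilin, *CSRP1* a LIM domain protein, and *INHBA* a subunit of activin, a ligand of the TGF-β family. *INHBA* also differed between the libraries, with 102 CPM in control and 307 CPM in TGF-β1 cells. Among the 5 genes whose higher correlation was lowest were *PRRX1* (-0.28 in control, -0.30 in TGF-β1 cells), *EHBP1* (-0.27, -0.30), *MAP4K4* (-0.24, -0.31) and *FAP* (-0.29, -0.24). *PRRX1* is a transcription factor of mesenchymal cells, and *FAP* is a surface protease that marks activated fibroblasts. *FAP* went against the contractile genes within each library although it, too, was higher after TGF-β1 (67.9 and 211 CPM).

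To see whether the members differed alike in all cells, the kept cells were clustered again with the 10 members left out of the clustered genes, all of which had been among the most variable. This gave 8 rebuilt clusters, which are not those of the study, with 97 to 900 cells of the control and 54 to 1227 of the TGF-β1 library. In each of the 8, the summed level was the higher in TGF-β1 cells, by log2 ratios from 0.42 to 1.33. It ranged from 9221 to 20759 CPM over the clusters of the control library and from 23161 to 34782 CPM over those of the TGF-β1 library, a 2.25-fold and a 1.502-fold spread. Which library had the wider spread depended on the resolution, since the 12 clusters at a resolution of 0.8 spread 2.12-fold in control and 2.78-fold after TGF-β1.

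*TPM1*, *CNN1* and *ACTG2* were more than 2-fold higher in each of the 8 clusters, and *TAGLN* and *CALD1* were higher in each of the 8. *ACTA2* was higher in 7, and in cluster 1 it was level, with 4094 CPM in control and 4059.7 CPM in TGF-β1 cells (log2 ratio -0.01). Cluster 1, with 666 control and 1031 TGF-β1 cells and with *CA8*, *NPFFR2* and *CHN2* as its leading genes, also had the most *MYH11* of the clusters in both libraries, 88.7 and 47.7 CPM. *MYH11* was lower after TGF-β1 in 7 clusters, in 6 of them with a counting interval below 0, and its lowest log2 ratio was -1.12 in cluster 2.

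Cluster 7 stood apart in the control library and was the smallest, with 97 control and 54 TGF-β1 cells. It was led by *CA4*, *GDF15* and *GJB5*. Its control cells had 910 CPM of *ACTA2*, where the other clusters had at least 2874 CPM, and 27.2 CPM of *ACTG2*. Its TGF-β1 cells had 2624 and 523 CPM, so that the log2 ratios, 1.53 and 4.27, were the highest of the 8 clusters. It was the one cluster in which *MYH11* was higher after TGF-β1 (log2 ratio 0.65, 0.17 to 1.12, from 87 and 70 UMIs). *TPM2* (0.83 in this cluster) and *LMOD1* (0.59) were higher in 6 of the 8 clusters, *LMOD1* in 5 of them with an interval above 0, and *MYL9* (0.68) was higher in 4. At the other end, cluster 5, with 162 control and 185 TGF-β1 cells and *COMP* and *CFD* as its leading genes, had the highest *ACTA2*, *TAGLN* and *MYL9* of the clusters in the TGF-β1 library (6991, 9747 and 1782 CPM), but the lowest *CALD1* and *MYH11* (3197 and 10.8 CPM). In the cycling-like cluster 6, whose leading genes included *CENPF*, *CDC20*, *CCNA2* and *ASPM*, the log2 ratio of the sum was 0.59, as in all cells.

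Most contractile proteins belong to families with members used outside muscle, and the share of the smooth muscle members within their family differed by family. *TPM1* made up 41.9% of the UMIs of *TPM1*, *TPM2* and *TPM4* in control cells and 61.8% in TGF-β1 cells, while *TPM2* made up 45.04% and 29.2%. *CNN1* went from 29.5% to 52.2% of the calponin UMIs, with *CNN2* (92.8 and 87.0 CPM) and *CNN3* (368 and 328 CPM) slightly lower. *ACTG2* made up 2.91% and 5.97% of the actin UMIs.

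The other members held their share or lost some of it. *ACTA2* was 30.1% of the actin UMIs in control and 29.4% in TGF-β1 cells, since β-actin (*ACTB*, 5455 and 7248 CPM) and γ-actin (*ACTG1*, 2591 and 3201 CPM) were higher as well. *TAGLN* was 85.3% and 83.9% of the transgelin UMIs, beside *TAGLN2* (772 and 1318 CPM, log2 ratio 0.77) and *TAGLN3* (19.3 and 37.7 CPM, 0.96). *MYL9* was 41.5% of its light chain family in control and 38.8% after TGF-β1, with *MYL12A* at 1268 and 1485 CPM and *MYL12B* at 142.5 and 69.4 CPM (log2 ratio -1.04). *MYH11* went from 6.59% (6.46% to 6.72%) to 3.71% (3.62% to 3.81%) of the heavy chain UMIs, beside *MYH9* (330.0 and 330.2 CPM) and *MYH10* (277 and 326 CPM). *TPM3* and *MYL6B* were not found by symbol and are not in these shares.

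**Figure D5:**
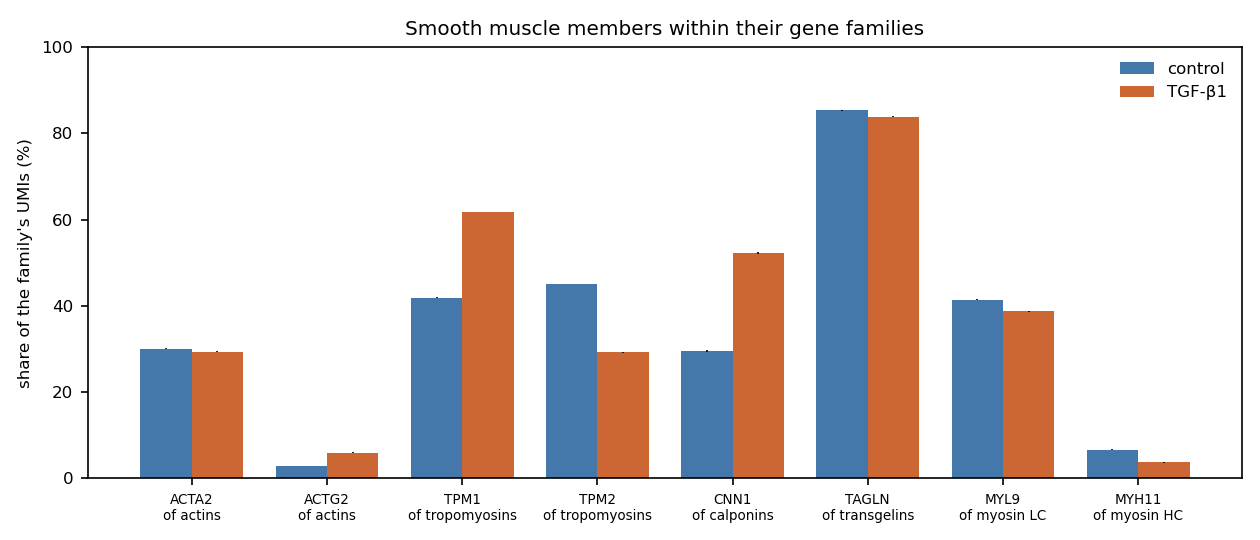
Share of each smooth muscle member in the UMIs of its gene family, in the control and the TGF-β1 library, with 95% binomial counting intervals that are hardly visible at this depth. LC and HC stand for light and heavy chains. *TPM1* and *CNN1* take a larger share after TGF-β1 (61.8% and 52.2%), *TPM2* and *MYH11* a smaller one (29.2% and 3.71%), and *ACTA2* and *TAGLN* differ by under 2 percentage points.

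Other genes of smooth muscle did not differ in one direction. Of 34 such genes outside the members, 33 were found and 24 were expressed. Their median log2 ratio was 0.04, with 1 gene more than 2-fold higher, 1 more than 2-fold lower, and 22 within 2-fold. *CSRP2*, a LIM domain protein of smooth muscle, went from 14.9 to 75.7 CPM (log2 ratio 2.34, 2.29 to 2.40). *NEXN* went from 178 to 354 CPM (0.99). *SYNPO2*, an actin-bundling protein of smooth muscle, was lower, with 102 and 49.9 CPM (-1.03), and so was the integrin gene *ITGA8*, with 39.7 and 22.2 CPM (-0.84). With the summed members these 4 genes had correlations in control cells of 0.0045 for *CSRP2*, 0.53 for *NEXN*, 0.10 for *SYNPO2* and 0.14 for *ITGA8*, and in TGF-β1 cells of -0.05, 0.39, 0.12 and 0.09. The counts of *CSRP2* and *ITGA8* were sparse, and their correlations are given as values only. Counted as whole lists, 9 of 25 identifiers of other smooth muscle genes (*PPP1CB* has more than one) and 9 of 14 family partners had a correlation above 0.3 in control, where 1.23% of the 7299 genes had, and 6 and 4 in TGF-β1 cells, where 0.411% had.

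Of the 10 genes of the serum response factor axis, 9 were found and 8 were expressed, with a median log2 ratio of 0.06. *SRF* itself had 11.6 CPM in control and 16.4 CPM in TGF-β1 cells (log2 ratio 0.50, 0.43 to 0.58). Its coactivators *MYOCD* and *MRTFA* were also higher, with 8.13 and 12.8 CPM (0.65, 0.56 to 0.74) and 56.7 and 83.2 CPM (0.55, 0.52 to 0.59). *KLF4*, a transcription factor known to repress smooth muscle genes, was lower, with 110.1 and 42.2 CPM (-1.38, -1.42 to -1.35). None of the 7 genes of this axis with at least 10 CPM in both libraries had a correlation with the summed members above 0.3 in either library. Over the 7299 genes this share was 1.23% in control and 0.411% in the TGF-β1 library, so the count says little about this axis. Several of these genes were sparse, such as *SRF*, found in 20.1% of thinned control and 27.2% of thinned TGF-β1 cells.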

How the data were processed

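For each of the 2 libraries, the authors deposited a count matrix of UMIs (genes by barcodes) from Cell Ranger on the horse genome EquCab3.0 (version 7.1.0 per the labels, 8.0.1 per the file headers), without normalization or the study's cell filters. Cells with at least 20000 UMIs, 3500 genes and under 4% of UMIs on MT- genes were kept, as in the study. Doublets, which the study called from genotypes, were not removed.

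UMIs were summed over kept cells, scaled to CPM of all genes, and the TGF-β1 level was divided by the control level on the log2 scale, with no pseudocount. Scripts ran under pandas 2.3.3, scipy 1.17.1 and numpy 2.4.6 (Python 3.11.15), and figures under matplotlib 3.10.9. The ratio and the correlation were tested on simulated data. Clusters were made in Seurat 5.3.0 (SeuratObject 5.2.0, R 4.3.3) from 2000 variable genes without the members, 30 dimensions, canonical correlation integration and resolution 0.5. A symbol with several identifiers was summed, except in the correlations. Named genes outside the members are the 4 largest absolute ratios of the expressed genes of each list, the 10 most and 5 least alike genes, family partners and cell type markers, and 1 of the least alike genes is not reported here. Members and lists were chosen with earlier results of these data known. Depth limits precision little for abundant genes and most for *MYH11* and *LMOD1*. Promoter motifs were planned but not analysed here.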

Additional observations from a re-analysis of the deposited data

How the results depend on the processing

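No paired analysis was possible because the cells, which come from the same 4 mares in both libraries, were not assigned to mares here. The alternatives were other cell filters (all deposited barcodes, at least 10000 UMIs, a limit of 6% on mitochondrial UMIs, no cells beyond the 98th percentile in UMIs, only cells with 30000 to 60000 UMIs, cycling cells removed), other scalings (per-cell CPM averaged, totals without the members, a size factor from the median of gene ratios), limits of 1 CPM or 1.5-fold, other forms of the correlation, and other cluster resolutions. The log2 ratio of the summed members was 0.58 with all deposited barcodes and with a size factor, 0.59 with a UMI minimum of 10000, without the cells of most UMIs and without cycling cells, 0.69 with 30000 to 60000 UMIs, 0.64 as the mean of per-cell CPM and 0.60 with totals without the members. The median log2 ratio of the members was 0.43 without the cells of most UMIs, 0.56 with 30000 to 60000 UMIs, 0.41 with a size factor, 0.48 as the mean of per-cell CPM and 0.44 with totals without the members. A limit of 1.5-fold counted 5 members instead of 3, adding *TAGLN* (higher) and *MYH11* (lower), and no other alternative changed the count. The sign of *MYL9* turned, to 0.058 with 30000 to 60000 UMIs and 0.032 as the mean of per-cell CPM, and no other member changed sign. The cause was not tested. The median correlation of the detected members moved most without thinning, to 0.71 in the control library, and stayed between 0.40 and 0.45 in the TGF-β1 library under all alternatives. At resolutions of 0.3 and 0.8, with 5 and 12 clusters, *TPM1*, *CNN1*, *ACTG2*, *TAGLN* and *CALD1* were higher after TGF-β1 in every cluster. At 0.8, *CNN1* was more than 2-fold higher in 10 of 12, and *TPM1* and *ACTG2* in 11.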

Other observations

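*ACTA1*, skeletal muscle α-actin, was chosen after its values were seen. It had 30 UMIs in the control library and 495 UMIs in the TGF-β1 library (0.143 and 2.25 CPM, log2 ratio 3.98), and it was found in 0.103% of thinned control and 0.931% of thinned TGF-β1 cells. Cardiac α-actin (*ACTC1*) had 7 and 9 UMIs.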
